A study of Mus musculus with 6 samples.

Results

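The epidermal growth factor (EGF) receptor family was examined as 9 genes, 6 ligands and 3 receptors, chosen by symbol from the 35275 genes listed in the deposited tables. The ligands were Epgn, Areg, Ereg, Btc, Hbegf and Tgfa, and the receptors were Egfr, Erbb2 and Erbb3. All 9 had enough reads to be tested. RNA came from the epithelial region of mouse back skin and was read in 6 libraries, 3 labelled IL-33 KO (called knockout from here on) and 3 labelled WT, all of strain C57BL/6. The knockout mice lack interleukin-33, a cytokine that epithelial cells keep in the nucleus and release on damage. Every mouse, WT included, had received 0.25% dinitrofluorobenzene (DNFB, a contact allergen) in a mixture of acetone and olive oil. It was applied to the back 3 times a week for 22 days. Both genotypes were thus sampled in DNFB-treated skin, and untreated skin was not part of the comparison. How the IL-33 allele was made, and the age and sex of the mice, are not given in the sources used. The labels number the samples of each genotype but do not say that they are different animals. The p-values therefore reflect the spread between these libraries, which may be technical.

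EGF receptor ligands are made as membrane-anchored precursors and are cut from the cell surface by metalloproteases, chiefly ADAM17. Soluble ligand binds EGFR on the same or a neighbouring cell, and EGFR then pairs with itself or with ERBB2, which has no known soluble ligand of its own, or ERBB3, which binds neuregulins and signals mainly through its partners. In the epidermis the pathway is known for driving keratinocyte proliferation and migration, for wound closure and for restraining hair follicle growth, and several of the ligands are produced by keratinocytes in an autocrine loop.

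The libraries carried the Il33 levels that their labels name, with 11 to 22 reads in the knockout and 2817 to 3906 in WT. Depth was 20459574 to 24359612 reads per library. Keratins of basal keratinocytes were abundant in each library, and the summed level of 10 basal keratinocyte genes was 22852 to 32077 CPM (counts scaled to library size after TMM adjustment) in the knockout and 27273 to 42692 in WT. Fibroblast genes were present as well, with 7 genes summing to 11946 to 13991 CPM in the knockout and 12746 to 22836 in WT, although the label names the epithelial region. In bulk tissue such as this, fewer cells of a type and less RNA per cell cannot be told apart.

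In edgeR's quasi-likelihood test across 15720 genes, 0 of the 9 family members passed an adjusted p of 0.05, while 0.0191% of all genes tested did. DESeq2, in which 1.31% of all genes passed, and limma-voom, with 0.07%, also gave 0 of 9. At an unadjusted p under 0.05 there were 3 members. Epgn and Areg were on the lower side, with 4.15% of all genes, and Egfr on the higher side in the knockout, with 4.87%. Log2 fold changes (knockout minus WT) were negative for 6 members, 5 ligands and Erbb3, and positive for Tgfa, Egfr and Erbb2. Their median was -0.35, where all genes tested had a median of -0.01 and 52% of them were negative.

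Upstream sequences of Epgn, Areg and Egfr are shown because these are the members with the smallest p. Epgn and Areg also lie close together on chromosome 5, with Ereg between them, and their levels followed each other across the libraries. They are from RefSeq's promoter windows (build GRCm38.p6, which is the mm10 assembly), given 5′ to 3′ on the gene's strand and ending before both the RefSeq start and the gene start in the deposited table. RefSeq windows were matched for 6 of the 9 members. Capitals mark matches on either strand to 3 motifs, the cyclic AMP response element TGACGTCA, the GC box GGGCGG and the TATA element TATAAA. The Epgn sequence covers chr5:91027267-91027463, that of Areg chr5:91139349-91139598 and that of Egfr chr11:16751953-16752202, all on the plus strand.
Epgn: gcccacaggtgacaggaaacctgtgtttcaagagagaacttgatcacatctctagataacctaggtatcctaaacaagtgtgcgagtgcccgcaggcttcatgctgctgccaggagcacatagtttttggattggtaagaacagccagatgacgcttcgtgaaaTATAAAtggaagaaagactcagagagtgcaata
Areg: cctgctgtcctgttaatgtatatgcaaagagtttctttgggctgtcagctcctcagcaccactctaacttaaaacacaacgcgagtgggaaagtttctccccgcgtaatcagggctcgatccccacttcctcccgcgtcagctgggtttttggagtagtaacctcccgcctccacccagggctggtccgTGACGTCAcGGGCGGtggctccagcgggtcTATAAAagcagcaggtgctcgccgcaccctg
Egfr: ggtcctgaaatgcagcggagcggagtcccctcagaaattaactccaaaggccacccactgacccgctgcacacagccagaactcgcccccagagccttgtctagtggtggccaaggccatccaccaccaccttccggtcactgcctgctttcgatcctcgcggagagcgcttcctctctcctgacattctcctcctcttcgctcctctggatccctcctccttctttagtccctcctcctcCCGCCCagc
In Areg the TATA element lay 31 to 26 bases before the RefSeq start and 47 to 42 before the start in the deposited table. The GC box lay 52 to 47 and the cyclic AMP response element 61 to 54 bases before the RefSeq start of Areg. In Epgn the TATA element lay 86 to 81 bases before the RefSeq start and 33 to 28 before the start in the deposited table. The 2 sources place these starts differently, and which start these libraries used was not tested. In Egfr a GC box, on the opposite strand as CCGCCC, lay 9 to 4 bases before the start, which is the same in both sources, and no TATA element was found in the window. Of the 32851 RefSeq windows of 250 upstream bases, 12.4% held TATAAA, 32.7% held GGGCGG and 1.55% held TGACGTCA. The AP-1 motif TGANTCA, also searched on both strands, was in 0 of the 6 member windows and in 6.75% of all windows. None of the searched motifs overlaps another in these 3 sequences.

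Epgn encodes epigen, a ligand of low affinity and long action on EGFR. It lies on chromosome 5 of mm10 from 91027464 to 91035215 on the plus strand. Epgn stood at 34.5, 45.2 and 54.5 CPM in knockout 1, 2 and 3 and at 101, 80.6 and 55.5 CPM in WT 1, 2 and 3. Each knockout library lay below each WT library, but knockout 3 and WT 3 were almost level. The mean was 44.7 ± 9.97 CPM in the knockout and 79.0 ± 22.7 in WT (SD, n = 3), and the fitted level in the knockout was 56.6% of that in WT. The log2 fold change was -0.82 ± 0.24 (SE; 95% interval -1.38 to -0.26), with an adjusted p of 0.440 in edgeR. Over the alternative settings its adjusted p was 0.0736 to 0.958 and its log2 fold change -1.02 to -0.60.

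Areg encodes amphiregulin, a ligand made by keratinocytes and also by regulatory T cells, type 2 innate lymphoid cells and mast cells (chromosome 5, 91139615 to 91148432, plus strand). It stood at 17.8, 19.2 and 29.7 CPM in the knockout libraries and at 46.8, 36.6 and 28.0 CPM in WT 1, 2 and 3. Knockout 1 and 2 were below every WT library, while knockout 3 was above WT 3. The fitted level was 60.0% of WT (log2 fold change -0.74 ± 0.25, SE; 95% interval -1.31 to -0.17; adjusted p 0.487 in edgeR). Over the alternative settings its adjusted p was 0.127 to 0.958.

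Ereg encodes epiregulin, which binds EGFR and ERBB4 (chromosome 5, 91074617 to 91093649, plus strand, between Epgn and Areg). Its level was 18.0, 27.9 and 34.5 CPM in the knockout and 49.1, 48.5 and 25.3 CPM in WT. WT 1 and 2 were above all knockout libraries, and WT 3 was below knockout 2 and 3. The log2 fold change was -0.61 ± 0.31 (SE; 95% interval -1.31 to 0.09; adjusted p 0.593 in edgeR).

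Btc encodes betacellulin, another ligand of EGFR and ERBB4, and had the lowest level of the members on the FPKM scale. It is on the minus strand of chromosome 5 from 91357261 to 91402994. It stood at 10.1, 11.3 and 9.24 CPM in the knockout and 13.0, 18.3 and 7.92 CPM in WT, so that WT held both the highest and the lowest library. The log2 fold change of -0.35 ± 0.28 (SE; adjusted p 0.714 in edgeR) came to -0.03 without WT 2 and to -0.62 without WT 3.

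Hbegf encodes heparin-binding EGF-like growth factor, a ligand that keratinocytes shed during wound closure, and is listed on chromosome 18. Its level was 54.1, 67.2 and 82.8 CPM in the knockout and 151, 82.0 and 65.6 CPM in WT. WT 1 stood far above the other 5 libraries, whose genotypes were interleaved. The log2 fold change was -0.55 ± 0.30 (SE; adjusted p 0.617 in edgeR), and without WT 1 it was -0.12.

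Tgfa encodes transforming growth factor alpha, a keratinocyte ligand needed for the normal shape of the hair follicle (chromosome 6, 86195251 to 86275449, plus strand). It stood at 109, 115 and 106 CPM in the knockout and 143, 79.0 and 87.3 CPM in WT. The 3 knockout libraries were close to each other and lay between WT 1 and the other WT libraries. The log2 fold change was 0.10 ± 0.22 (SE; 95% interval -0.40 to 0.59; adjusted p 0.902 in edgeR), and it took the other sign without WT 2 (-0.06) or without WT 3 (-0.01).

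**Figure D1:**
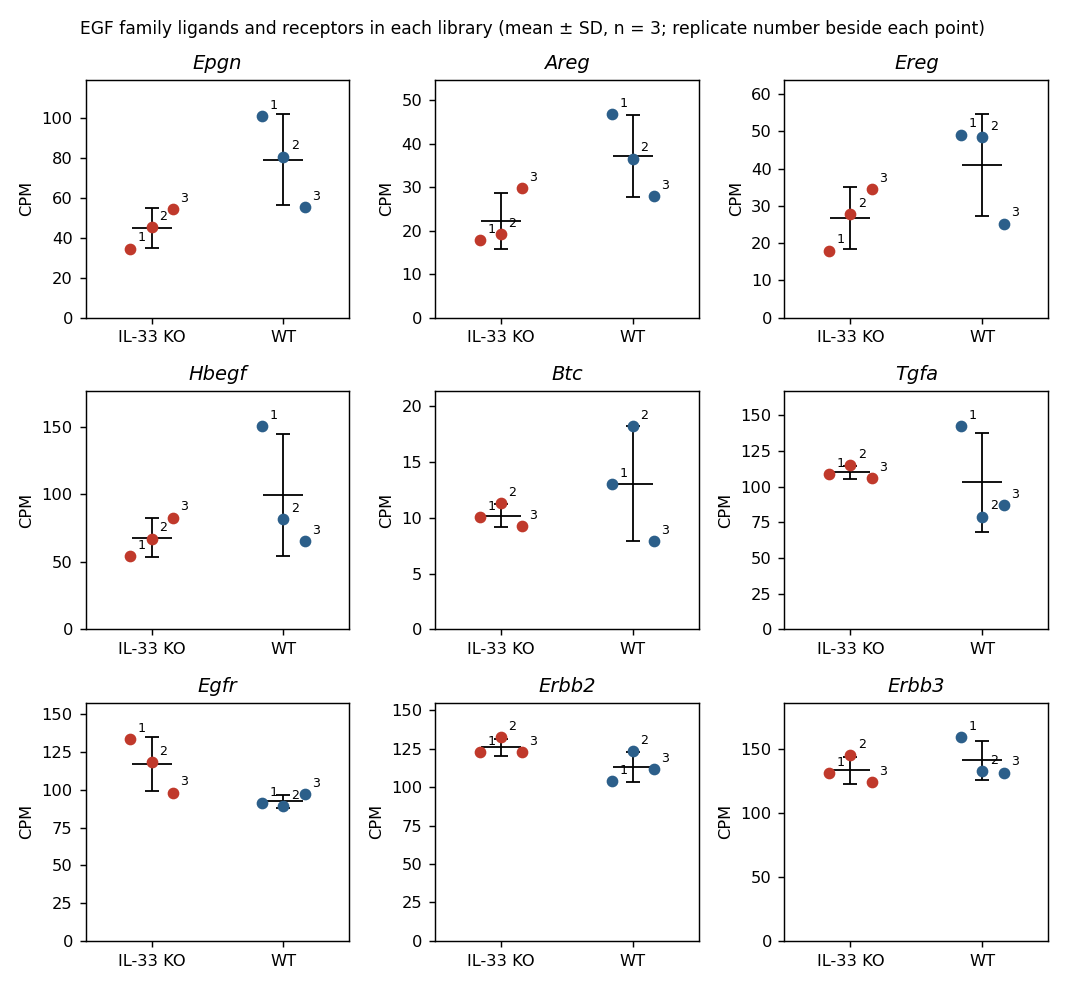
Level of each of the 9 family members in CPM (vertical axis, from 0) in the 3 IL-33 KO and 3 WT libraries; points are libraries with their replicate number, and bars give the mean ± SD. Epgn is the ligand whose genotypes do not overlap (at most 54.5 CPM in IL-33 KO and at least 55.5 in WT), and WT 1 is the highest library for Epgn, Areg, Ereg, Hbegf, Tgfa and Erbb3.

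Among the receptors, Egfr (chromosome 11, 16752203 to 16918158, plus strand) stood at 134, 118 and 98.1 CPM in the knockout and at 91.2, 89.0 and 96.9 CPM in WT. Each knockout library was above each WT library, with knockout 3 only just above WT 3, and the WT libraries were close together. The fitted level in the knockout was 126% of WT (log2 fold change 0.34 ± 0.14, SE; 95% interval 0.02 to 0.66; adjusted p 0.541 in edgeR). In the deposited FPKM values, which are scaled to total reads, the genotypes overlapped: the lowest knockout library was at 9.72 FPKM and the highest WT library at 9.93. An antisense transcript, Egfros, overlaps Egfr and had 160 reads over the 6 libraries, against 1809 to 3171 reads of Egfr in each library. No label or file header says whether reads were counted by strand.

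Erbb2, the partner receptor without a known soluble ligand (chromosome 11, 98412470 to 98437716, plus strand), stood at 123, 132 and 123 CPM in the knockout and 104, 124 and 112 CPM in WT. The highest WT library lay above 2 knockout libraries. In the deposited FPKM values the genotypes did not overlap: the lowest knockout library was at 24.7 FPKM and the highest WT library at 23.3. FPKM values lack the TMM adjustment. With total-count scaling the median log2 fold change of all genes tested was 0.07, against -0.01 with TMM. The share of all genes without overlap in FPKM was not counted. The log2 fold change of Erbb2 was 0.15 ± 0.12 (SE; 95% interval -0.11 to 0.42; adjusted p 0.700 in edgeR). Mien1, on the opposite strand, overlaps Erbb2 and had 1105 reads over all libraries.

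Erbb3, the neuregulin receptor with little kinase activity of its own (chromosome 10, 128567523 to 128589652, minus strand), stood at 131, 145 and 124 CPM in the knockout and 159, 132 and 131 CPM in WT. WT 2 and 3 lay within the range of the knockout libraries. The log2 fold change was -0.08 ± 0.13 (SE; 95% interval -0.38 to 0.22; adjusted p 0.863 in edgeR), and its sign turned with total-count scaling (0.01) and without WT 1 (0.02). The receptors varied less among libraries than the ligands did: the highest library was 1.27 to 1.50 times the lowest for the receptors and 1.81 to 2.92 times for the ligands.

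**Figure D2:**
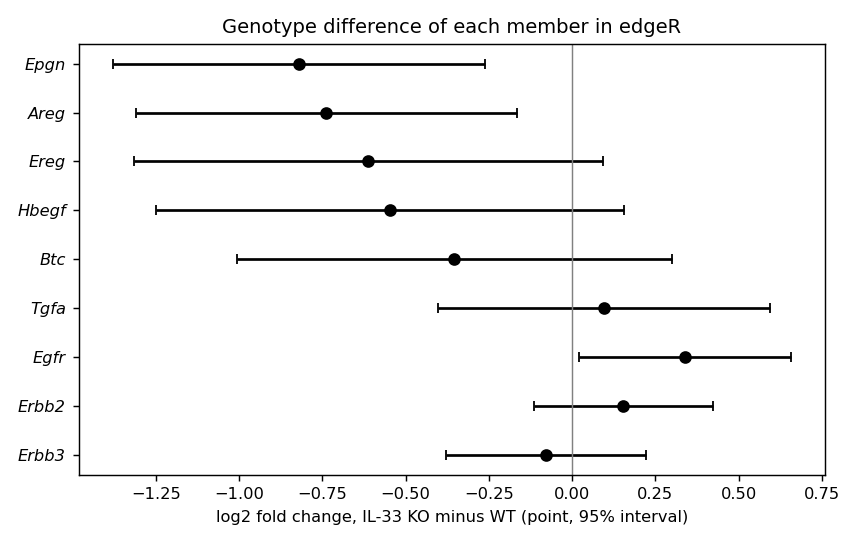
Log2 fold change (IL-33 KO minus WT, horizontal axis) of each member in edgeR, with the point as the estimate and the bar as its unadjusted 95% interval. The intervals of Epgn (-1.38 to -0.26) and Areg (-1.31 to -0.17) lie below 0 and that of Egfr (0.02 to 0.66) above it, the other 6 include 0, and none of the 9 passed after adjustment over all genes.

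Groups without any overlap in CPM were seen for 2 of the 9 members. Which receptor separated depended on the scaling, as in FPKM Egfr overlapped and Erbb2 did not. The shares of all genes given next are for CPM. Epgn was lower in each knockout library, as were 6.47% of all genes tested, and Egfr was higher in each, as were 7.46%. Several of these values moved with the library left out. Without WT 3, the WT library closest to the knockout for Epgn, Areg and Ereg, the log2 fold changes were -1.02 for Epgn, -0.91 for Areg and -0.87 for Ereg, with adjusted p of 0.0736, 0.127 and 0.146 in edgeR. Without WT 1 they were -0.60, -0.53 and -0.46. Egfr stayed positive in each of the 6 fits with a library left out, between 0.23 and 0.45.

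**Figure D3:**
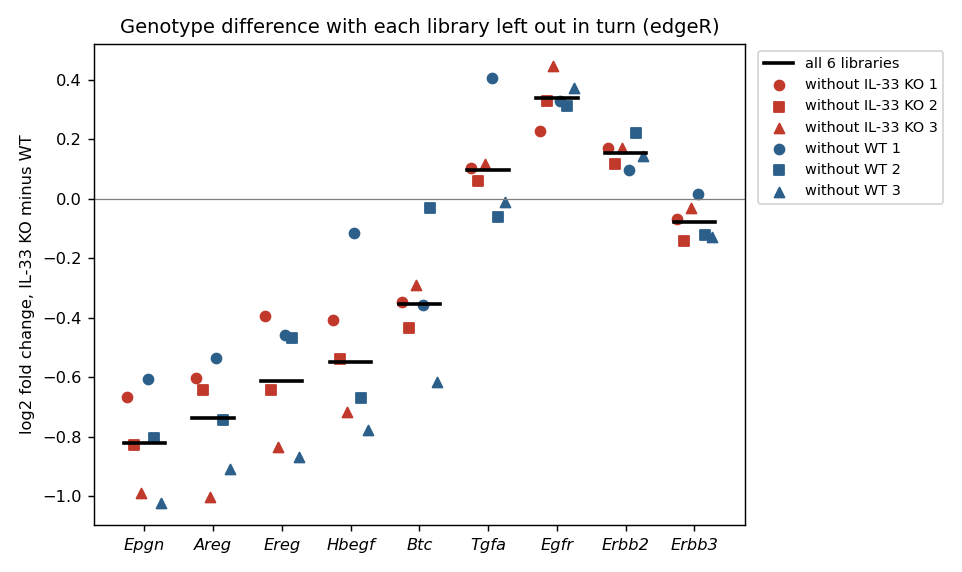
Log2 fold change (IL-33 KO minus WT, vertical axis) of each member with all 6 libraries (black line) and with each library left out in turn (red for an IL-33 KO library, blue for a WT library; the marker gives the replicate). Epgn, Areg, Ereg, Hbegf and Btc stay below 0 throughout, Hbegf comes to -0.12 without WT 1 and Btc to -0.03 without WT 2, and Tgfa and Erbb3 cross 0.

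Levels were compared between genes on the deposited FPKM values (reads scaled by gene length and by the total reads of the library). In WT the order of mean levels was Epgn at 43.1 FPKM, Hbegf 40.2, Areg 29.8, Tgfa 23.5, Erbb3 22.7, Erbb2 22.0, Ereg 9.49, Egfr 8.81 and Btc 4.35. Neighbours in this order overlapped across libraries, except that every WT library had more Erbb2 than any had Ereg, and more Egfr than any had Btc. In the knockout the order of mean levels was Hbegf at 29.4 FPKM, Tgfa 26.7, Epgn 26.0, Erbb2 25.8, Erbb3 22.8, Areg 19.0, Egfr 11.8, Ereg 6.62 and Btc 3.65. There Hbegf, Tgfa, Epgn and Erbb2 overlapped, as did Erbb3 and Areg, while Areg, Egfr, Ereg and Btc were separate from each other. Epgn thus ranked first in WT and behind Hbegf and Tgfa in the knockout, and Egfr was above Ereg in each knockout library but in 1 of 3 WT libraries.

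The summed ligand level was 97.5, 108 and 129 FPKM in the knockout and 196, 139 and 117 FPKM in WT, with knockout 3 above WT 3. Summed receptor levels were 63.8, 62.2 and 55.3 FPKM in the knockout and 52.2, 52.1 and 56.1 FPKM in WT, again with an overlap between knockout 3 and WT 3. The ratio of the sums, which does not depend on library scaling, was 1.53, 1.74 and 2.33 in the knockout and 3.74, 2.67 and 2.09 in WT. The genotypes overlapped in this ratio through the same pair of libraries.

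Shares of the summed ligand level did not overlap between the genotypes for Epgn and Tgfa, while those of the other ligands overlapped. Epgn made up 21.6%, 23.8% and 24.3% of the summed ligand FPKM in the knockout and 27.3%, 31.0% and 28.2% in WT. Tgfa made up 28.3%, 25.2% and 19.7% in the knockout and 16.1%, 12.7% and 18.4% in WT. Shares of a sum are tied to each other, so these are not separate observations. The 4 ligands of chromosome 5 together made up 46.6% to 52.9% in the knockout and 53.7% to 63.9% in WT, also without overlap. Among the receptors, Erbb3 made up 36.7% to 38.8% of the summed receptor FPKM in the knockout and 39.7% to 47.1% in WT. The shares of Egfr and of Erbb2 overlapped. The levels of Tgfa (log2 fold change 0.10) and Erbb3 (-0.08) themselves overlapped between the genotypes. Such shares were not formed from other genes, so how often they separate was not tested.

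**Figure D4:**
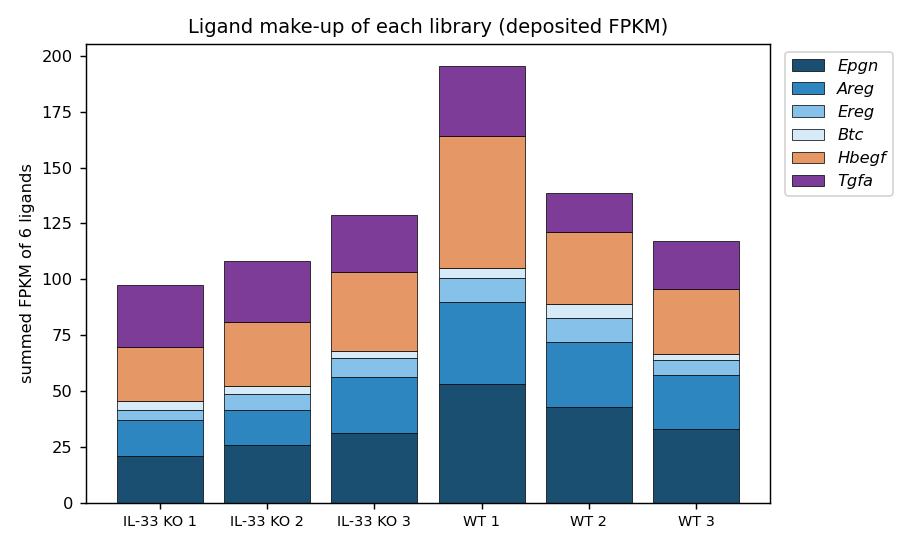
Deposited FPKM of the 6 ligands stacked for each library (vertical axis, from 0). The summed level is highest in WT 1 (196 FPKM) and lowest in IL-33 KO 1 (97.5 FPKM), WT 3 lies below IL-33 KO 3, and the Tgfa part is the largest share of the sum in IL-33 KO 1 (28.3%).

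Epgn, Ereg, Areg and Btc lie within 376 kb of each other on chromosome 5. All 4 had negative log2 fold changes, -0.82, -0.61, -0.74 and -0.35 in the order of their positions. Of 19 genes listed within 500 kb of this cluster, 12 were tested, and of the 8 that are not ligands of the EGF receptor 4 had a positive and 4 a negative sign, with none passing. The neutrophil chemokine gene Cxcl1, on the Epgn side, stood at 3.75 CPM in the knockout and 13.1 CPM in WT (log2 fold change -1.80, adjusted p 0.434 in edgeR). It was lower without overlap, as were 6.47% of all genes tested. The nearest tested genes on either side, Mthfd2l (0.11) and Parm1 (0.08), had log2 fold changes near 0. Farther out on the Epgn side, Cxcl2 (-0.65), Cxcl3 (-0.98) and Pf4 (-0.84) were negative like the ligands. Cxcl5 (0.22) and Rassf6 (0.48), on the same side, were positive, and all of these overlapped between the genotypes.

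**Figure D5:**
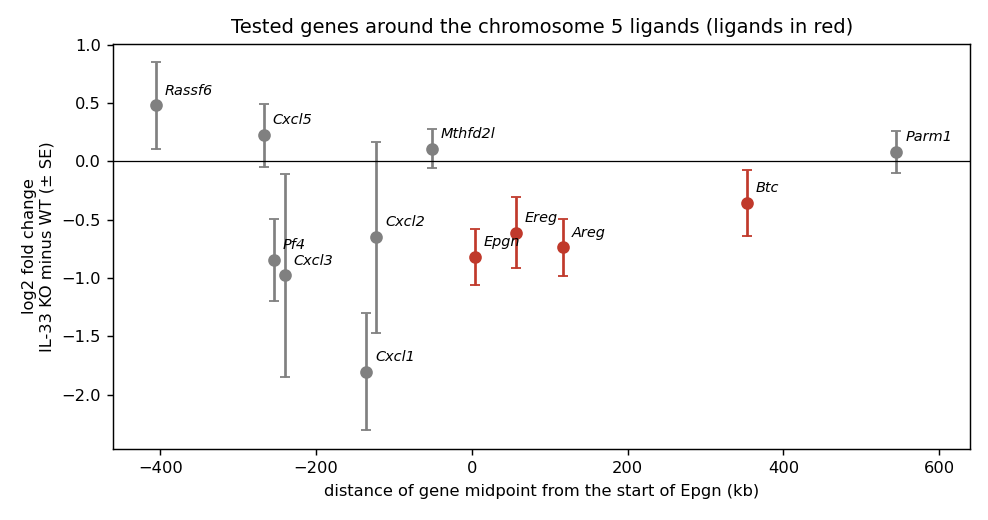
Log2 fold change (IL-33 KO minus WT, ± SE, vertical axis) of the 12 tested genes within 500 kb of the chromosome 5 ligands, by distance of the gene midpoint from the start of Epgn (horizontal axis, kb); ligands are red and other genes grey. The 4 ligands lie between -0.82 and -0.35, with Mthfd2l (0.11) and Parm1 (0.08) on either side. Farther out on the Epgn side, Cxcl2 (-0.65), Cxcl1 (-1.80), Cxcl3 (-0.98) and Pf4 (-0.84) are also below 0, and Cxcl5 (0.22) and Rassf6 (0.48) are above it.

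Of the 6 other genes of the EGF family in the list, 4 were tested. Egf itself, the founding ligand, was at 0.355 to 0.857 CPM in every library, and the neuregulin gene Nrg3 and the receptor gene Erbb4 had too few reads to be tested, being at 0 reads in 4 and 2 libraries. Nrg2, a neuregulin, stood at 7.08, 4.05 and 6.38 CPM in the knockout and 2.82, 3.80 and 3.94 CPM in WT (adjusted p 0.519 in edgeR). It was the only 1 of the 4 tested genes without overlap, and was higher in the knockout, as were 7.46% of all genes tested. Nrg1, a neuregulin that binds ERBB3 and ERBB4, had a log2 fold change of -0.31 ± 0.30 (SE). Its mean level was 4.01 FPKM in the knockout and 4.69 FPKM in WT, beside 3.65 and 4.35 FPKM for Btc.

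Ligand shedding was represented by proteases, their inhibitor and trafficking factors. Of 9 genes tested, 3 were higher and 6 lower by sign, the median log2 fold change was -0.10, and 0 passed in edgeR or DESeq2. Adam17, the main protease that frees these ligands, stood at 89.4, 102 and 99.9 CPM in the knockout and 119, 103 and 117 CPM in WT (log2 fold change -0.22 ± 0.12, SE; adjusted p 0.610 in edgeR). It was the only member of the list without overlap, against 6.47% of all genes on that side. Its trafficking partners Rhbdf1 and Rhbdf2, inactive rhomboid proteins, had log2 fold changes of -0.15 and -0.10, and Adam12 had -0.37. The 3 genes higher by sign were the inhibitor gene Timp3 (0.41), Adam10 (0.11) and the trafficking factor gene Frmd8 (0.10).

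Of 21 signal transducers, 11 were higher and 10 lower by sign, with a median of 0.01 and 0 passing in edgeR or DESeq2. The 4 without overlap, all higher in the knockout, were Braf (log2 fold change 0.50), Ptpn11 (0.29), Gab1 (0.21) and Nras (0.19), where 7.46% of all genes were higher without overlap. Braf is a kinase and Nras a GTPase of the MAP kinase cascade, and Ptpn11 and Gab1 encode a phosphatase and a docking protein below the receptor. Mapk3, another kinase of the cascade, was lower by sign with overlap (log2 fold change -0.31 ± 0.16, SE; adjusted p 0.602 in edgeR). Its p was smaller than those of Gab1 and Nras. Of 18 feedback inhibitors, 11 were higher and 7 lower, with a median of 0.14 and 0 passing in either tool. Rnf41, a ubiquitin ligase known to act on ERBB3, was at 46.3 to 49.0 CPM in the knockout and 38.6 to 41.2 CPM in WT (adjusted p 0.547 in edgeR). Errfi1, an EGFR inhibitor induced by the pathway, had a log2 fold change of -0.15, and Lrig1, which promotes EGFR degradation, 0.06.

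Early target genes of the pathway also respond to many other signals. Of 18 tested, 4 were higher and 14 lower by sign, with a median of -0.37 and 0 passing in edgeR. Lower without overlap, like 6.47% of all genes, were Fosb (4.26 ± 1.88 CPM in the knockout and 16.3 ± 4.78 in WT; SD, n = 3), Fos (56.2 ± 10.9 and 121 ± 45.1) and Cyr61 (33.4 ± 1.73 and 55.2 ± 5.57). Fos and Fosb are AP-1 subunits and Cyr61 encodes a matricellular protein, and their adjusted p were 0.376, 0.216 and 0.187 in edgeR. Higher without overlap, like 7.46% of all genes, were the ETS factor genes Etv4 (36.6 ± 6.30 and 24.8 ± 3.07 CPM; SD, n = 3) and Etv5 and the cyclin gene Ccnd1 (134 ± 10.2 and 103 ± 12.9), with adjusted p of 0.440, 0.547 and 0.504 in edgeR. In DESeq2, where 1.31% of all genes passed, 3 genes of this list did, Fos (adjusted p 0.00988), Fosb (adjusted p 3.05e-05) and Cyr61 (0.000928), all lower in the knockout.

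Across the 6 libraries, the profiles most like that of Epgn were found among 11601 other genes with a mean of at least 5 CPM, by the root mean square difference of log2 CPM after centring each gene on its mean. These were Ly6d (0.09), a surface protein gene of stratified epithelium, Areg itself (0.12) and Ecm1 (0.13), extracellular matrix protein 1. Ly6d stood at 609, 861 and 907 CPM in the knockout and 1619, 1341 and 868 CPM in WT, with WT 3 again next to knockout 2 and 3. The genes most like Egfr were Lclat1 (0.02), Apobec1 (0.03) and Clic5 (0.04), with log2 fold changes of 0.32, 0.29 and 0.36. A likeness chosen from so many genes over 6 libraries is a description of these libraries.

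Marker genes of several cell types varied alongside these values. The counts in this and the next paragraph stand beside the shares of all genes tested. Of these, 7.46% were higher and 6.47% lower without overlap, and 1.31% passed in DESeq2 in either direction. All 14 tested hair follicle markers, of 15 in the list, were higher in the knockout without overlap and 9 passed in DESeq2, their sum being 10722 to 22127 CPM in the knockout and 2667 to 5937 in WT. All 8 activated keratinocyte markers, among them Krt6a and Krt16, were lower by sign, with sums of 19850 to 31998 and 23604 to 53680 CPM and 0 without overlap. On the log2 scale, as the difference from the 6-library mean, the activated keratinocyte markers stood at -0.70, -0.18 and 0.03 in knockout 1, 2 and 3 and 0.99, 0.44 and -0.58 in WT 1, 2 and 3, and the 9 family members at -0.28, -0.08, -0.03, 0.40, 0.18 and -0.19. Of 6 mast cell markers 5 were lower by sign, with sums of 237 to 303 and 291 to 368 CPM. The mast cell protease genes Cma1, Tpsb2, Tpsab1 and Cpa3 were lower without overlap, and 1 of them, Tpsab1, passed in DESeq2 (adjusted p 0.0452). The 8 T cell and innate lymphoid markers summed to 110 to 183 and 117 to 167 CPM, with 0 without overlap. All 9 suprabasal keratinocyte markers were lower by sign (median log2 fold change -0.58), 0 of them without overlap, with sums of 11535 to 26598 and 20071 to 39761 CPM.

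Skeletal muscle markers stood apart in knockout 1 and 3. The actin gene of skeletal muscle, Acta1, reached 38.1 CPM in the first and 60.8 CPM in the other, against 0.548 CPM in knockout 2 and 0.118 to 0.353 CPM in WT. All 5 tested members, of 8 in the list, were higher by sign and 4 passed in DESeq2. The sums over the list were 12.3 to 254 CPM in the knockout and 8.99 to 9.43 CPM in WT. Of 8 melanocyte and Schwann cell markers 6 were higher by sign, and the pigment cell genes Mlana and Pmel were higher without overlap and passed in DESeq2 (adjusted p 0.0124 and 0.0149). All 7 adipocyte markers were higher by sign, 1 without overlap, and 4 of 5 sebaceous gland markers, 0 without overlap. Of 7 fibroblast markers 6 were lower by sign, 3 without overlap. Macrophage (5 of 5) and neutrophil (4 of 5) markers were lower by sign, and of 3 endothelial markers 2 were higher, with 0 without overlap in these 3 lists. Of all matched markers, Pvalb of the muscle list was at 0 reads in 2 libraries and the others were detected in every library. None of these marker genes passed in edgeR. Without knockout 1 the log2 fold changes of Epgn and Egfr were -0.67 and 0.23, and without knockout 3 they were -0.99 and 0.45. The part of these markers in the values of the ligands and receptors was not tested. With libraries scaled to 10 basal keratinocyte genes instead of all genes, the log2 fold changes were -0.76 for Epgn, -0.67 for Areg, -0.57 for Ereg, -0.46 for Hbegf and 0.44 for Egfr, with 0 of 9 members passing in edgeR.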

How the data were processed

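RNA-seq of 6 libraries was used, 3 per genotype, grouped by the sample titles. The authors deposited whole-number read counts per gene and, in another file, FPKM values of the same genes. STAR, RSEM and the mm10 genome are named in the submitters' processing notes, without versions or counting options. Deposited FPKM values matched counts divided by listed gene length and library total (largest relative difference 2.782e-07). Counts were tested unchanged in R 4.3.3 with edgeR 4.0.16: filterByExpr (15720 of 35275 genes kept), TMM, genotype only, glmQLFit and glmQLFTest, two-sided, Benjamini-Hochberg adjustment over all genes, threshold 0.05. Standard errors come from the F statistic, and log2 CPM used a prior count of 2. With 3 against 3 libraries an exact permutation test cannot go below p = 0.1, so none is reported. DESeq2 1.42.0, limma 3.58.1, other scalings, filters, a replicate block and each library left out were the alternatives. The edgeR script was tested on simulated data. Of 185 list symbols 184 were matched, 1 of them by identifier, and Krt85 was not matched. The members and lists were chosen with earlier results of these data known. Named were all members, and of each other list the counts and examples among the smallest p. Etv5, Ccnd1, Nras, the rhomboid genes, Adam10, Adam12, Timp3, Frmd8, Errfi1 and Lrig1 were named after their values were seen. Figures were drawn with matplotlib 3.10.9.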

Additional observations from a re-analysis of the deposited data

How the results depend on the processing

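None of the 9 family members passed in edgeR or in any of the 19 alternatives, and Epgn, Areg, Ereg, Hbegf, Btc, Egfr and Erbb2 kept their sign in all 19. The sign of Erbb3 turned with total counts (0.00585), factors from 10 basal keratinocyte genes (0.00278), limma-trend on filtered log2(FPKM + 1) (0.00586), filtered log2(FPKM + 0.1) (0.00612) or unfiltered log2(FPKM + 1) (0.00586), and without WT 1, with a range of -0.143 to 0.0181 over the libraries left out. That of Tgfa turned without WT 2 (-0.0623) and without WT 3 (-0.0117), with a range of -0.0623 to 0.405. The FPKM filter kept genes at 1 FPKM or more in 3 libraries. Over all genes, 3 passed in edgeR (2 higher, 1 lower), and 5 with upper quartile factors, total counts or a minimum of 1 CPM in 3 libraries (4 higher and 1 lower in each), 268 with basal keratinocyte factors (222 higher, 46 lower), 33 without a filter on low counts, 206 in DESeq2, 11 in limma-voom, 15 with log2(FPKM + 1), 11 with log2(FPKM + 0.1) and 6 with log2(FPKM + 1) unfiltered; the cause was not tested. With each library left out the count was 2 to 24, the highest without WT 3, and 0 members passed in each. The replicate block gave 2 genes and 0 members; libraries of the same number did not deviate together (correlations of -0.26, -0.12 and -0.38 across genes, which are not independent replicates), so the numbers were not taken as pairs. Members had 191 to 3436 reads per library.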
